A study of Mus musculus with 6 samples.

Results

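Solute carriers (SLC) are membrane proteins that move ions, nutrients and metabolites across membranes, and the 149 described here are those expressed in basal cells of the mouse prostate. They were chosen by symbol, as genes named Slc, a number, the letter a and a further number, and by level, as a mean of at least 1 FPKM over 6 libraries. FPKM counts sequenced fragments per kilobase of transcript length and scales them to the size of each library. Of 345 such symbols with a transcript in the data, 193 lay below that level, 36 of them at 0 in every library, and 152 reached it. Slc14a1, Slc2a1 and Slc16a3 were set aside, which left 149 of the 10255 genes tested. By name rather than by function, 4 of the 149 were included: Slc9a3r1, Slc9a3r2, Slc4a1ap and Slc7a6os encode no transporter. The other 145 were classed with the transporters by family, among them Slc3a2, a partner subunit, and not each is known to carry a substrate.

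The 3 libraries of proximal basal cells came from the proximal ducts of the prostate, those nearest the urethra, and the 3 libraries of distal basal cells from the distal ducts, toward the gland tips. All were from C57BL/6 mice aged 8 to 12 weeks, with no genetic change or treatment stated. Cells were dissociated, stained with antibodies and sorted by fluorescence, and the antibodies and gates are not given in the sources used here. The protocols also describe a culture of stromal cells, and whether the basal cells were cultured is not stated. Nothing in the labels says that replicate libraries stem from different animals. The p-values therefore reflect the spread from library to library, part or all of which may be technical.

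Transporters of the SLC type work either as uniporters, which let a substrate run down its gradient, or as symporters and exchangers, which couple it to another ion or solute. Several act at the plasma membrane, where several amino acid exchangers of the Slc7 family need the glycoprotein partner encoded by Slc3a2. Most of the Slc25 family, but not all of it, lies in the inner mitochondrial membrane and links cytosol and matrix. Prostate epithelium is known for its high zinc content and its export of citrate, and basal cells form the layer between the secretory luminal cells and the stroma.

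Depth derived from the deposited intervals lay between 21100000 and 27100000 fragments per library. Basal markers summed to 8579 to 8824 FPKM in proximal and 7461 to 9140 FPKM in distal libraries. By the test described below, 4.52% of all tested genes were higher in proximal libraries and 2.50% lower. Among 8 tested basal markers 3 were higher, with Krt5, a basal keratin, at 618 ± 48.9 FPKM in the proximal and 380 ± 50.7 FPKM in distal libraries (SD, n = 3 each). Markers of other cells moved with the duct region as well: among 10 tested markers of proximal luminal progenitors 8 were higher, and their sum was 2634 to 2891 FPKM in proximal and 1134 to 1245 FPKM in distal libraries. Endothelial markers were higher in 6 of 9 tested, with sums of 25.8 to 38.2 FPKM in proximal and 3.72 to 16.6 FPKM in distal libraries, and fibroblast markers in 5 of 7, with sums of 688 to 757 and 768 to 812 FPKM in proximal and distal libraries. Luminal markers were lower in 2 of 8 tested, with sums of 2613 to 2880 FPKM in proximal and 2309 to 3066 FPKM in distal libraries. Secretory products had 1 of 5 higher and 1 lower, and none of the tested leukocyte, smooth muscle or erythroid markers passed. No marker on these lists was at 0 in all 6 libraries. Genes induced by dissociation summed to 3819 to 5033 FPKM in proximal and 4986 to 12108 FPKM in distal libraries, with distal replicate 1 at 4986 FPKM, and 2 of 10 were lower. The part of these cells and of dissociation in the results was not tested, and in bulk libraries fewer cells of a type and less RNA per cell cannot be told apart.

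Upstream windows are shown for the 3 transporters with the largest increases on log2(FPKM + 1) and for Slc7a8, which had the largest decrease on that scale. The window of Slc25a11 is shown as well because it holds a match to TGANTCA. Each window holds the 250 bases before the RefSeq start (GRCm38.p6, the assembly of mm10), written 5′ to 3′ on the strand of the gene. Capitals mark matches to 3 motifs searched on both strands. TGATGNAAN is a form of the site of ATF4, the factor of the amino acid response. TGCNCNC is a loose form of the core of the metal response element, and TGANTCA a loose form of the AP-1 site. N stands for any base, so a match to a loose form need not be such a core or site. No matches of different motifs overlapped.
Slc25a48, chr13:56438105-56438354, plus strand: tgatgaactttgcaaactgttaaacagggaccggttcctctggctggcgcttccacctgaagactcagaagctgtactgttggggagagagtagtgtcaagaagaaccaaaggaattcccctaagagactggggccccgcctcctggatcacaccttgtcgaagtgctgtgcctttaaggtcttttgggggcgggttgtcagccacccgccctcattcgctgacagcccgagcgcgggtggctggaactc
Slc17a8, chr10:89621250-89621499, minus strand: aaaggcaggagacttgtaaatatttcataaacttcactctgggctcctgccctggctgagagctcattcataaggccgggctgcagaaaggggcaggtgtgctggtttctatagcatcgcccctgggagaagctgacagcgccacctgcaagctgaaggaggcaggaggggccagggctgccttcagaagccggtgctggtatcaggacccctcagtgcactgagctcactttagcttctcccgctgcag
Slc43a2, chr11:75531444-75531693, plus strand: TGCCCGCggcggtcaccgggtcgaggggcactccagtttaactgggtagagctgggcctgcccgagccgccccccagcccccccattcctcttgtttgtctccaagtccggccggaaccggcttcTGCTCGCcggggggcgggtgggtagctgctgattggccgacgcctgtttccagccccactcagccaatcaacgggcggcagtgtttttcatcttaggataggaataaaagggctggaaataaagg
Slc7a8, chr14:54781887-54782136, minus strand: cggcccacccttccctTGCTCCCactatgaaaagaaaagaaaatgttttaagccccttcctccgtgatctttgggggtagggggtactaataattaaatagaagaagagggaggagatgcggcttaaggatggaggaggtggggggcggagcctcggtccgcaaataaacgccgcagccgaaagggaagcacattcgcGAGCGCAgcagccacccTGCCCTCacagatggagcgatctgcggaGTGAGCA
Slc25a11, chr11:70647040-70647289, minus strand: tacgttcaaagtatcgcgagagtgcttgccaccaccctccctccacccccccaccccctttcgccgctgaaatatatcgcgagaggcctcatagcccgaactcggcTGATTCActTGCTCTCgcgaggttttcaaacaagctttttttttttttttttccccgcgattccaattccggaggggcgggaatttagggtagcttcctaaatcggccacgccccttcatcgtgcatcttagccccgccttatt

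For 12 of the 17 members that passed the test described below, RefSeq had a start within 50 bases of the start of the main transcript. TGCNCNC matched in 7 of these 12 windows, against 44.4% of all 32851 windows of the same length, and Slc7a8 held 4 matches. TGANTCA matched in 1 of 12, the window of Slc25a11, against 6.75% of all windows, and TGATGNAAN in 0 of 12, against 3.44%. G and C made up 56.4% of the Slc25a48 window, 57.2% of Slc17a8, 62.8% of Slc43a2 and 55.6% of Slc7a8, beside a median of 52.4% over all windows (quartiles 45.2% and 61.2%). A match describes the letters in the window and shows no binding.

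Proximal and distal basal cells differed in a small part of their transporters. Each gene was tested on log2(FPKM + 1) with limma over all 10255 genes, and a Benjamini-Hochberg adjusted p under 0.05 was called. In proximal cells 11 members rose and 6 fell, together 11.4% of the members, beside 7.02% of all tested genes. Those higher made up 7.38% of members, beside 4.52% of all tested genes, and those lower 4.03%, beside 2.50%. With libraries scaled by median ratios, 11 members were higher and 10 lower, beside 4.57% and 3.17% of all tested genes. Without this scaling, mitochondrial carriers and transporters for amino acids, for zinc and other metals and for inorganic ions appeared on both sides. No sugar or vitamin transporter among the members passed, a set from which Slc2a1 was left out. With the scaling, Slc45a4 of the sugar and polyol class passed (limma, adjusted p = 0.0435).

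Most members changed little on log2(FPKM + 1). The median log2 fold change was -0.04 over the members and -0.01 over all tested genes, 72 members had a positive and 77 a negative value, and 77 of 149 moved by less than 0.25 in either direction. Only 9 moved by more than 1 on that scale, of which Slc16a9 did not pass. The scale understates changes of low genes. For example, the ratio of proximal to distal mean FPKM was 2.68 for Slc43a3 and 0.424 for Slc26a2, with log2 fold changes of 0.89 and -0.98. Groups did not overlap in 28.8% of all tested genes. Among members they did not overlap in 33 members higher in proximal cells and 31 lower, which is 22.1% and 20.8% of the members, beside 15.8% and 13.0% of all tested genes. Of these, 47 did not pass. The other 85 members overlapped.

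**Figure D1:**
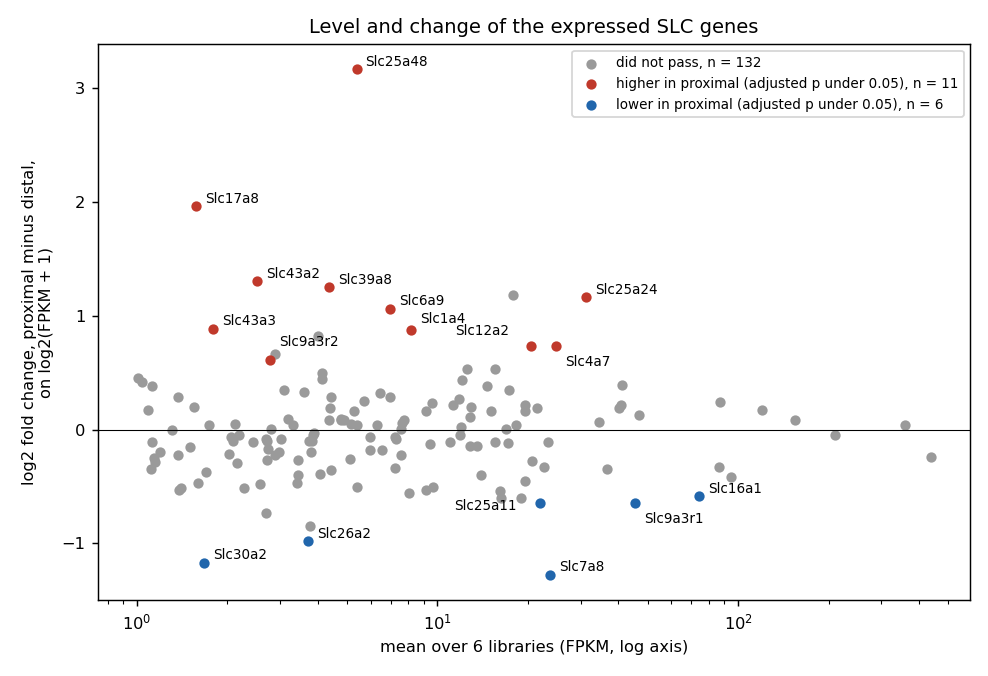
Each point is one of the 149 expressed SLC genes, with its mean level over 6 libraries in FPKM on a log axis and its log2 fold change, proximal minus distal, on log2(FPKM + 1). The 11 genes higher in proximal libraries and the 6 lower ones (limma, adjusted p under 0.05) are coloured and named, and they range in change from 3.17 for Slc25a48 to -1.28 for Slc7a8.

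Because the mean over all libraries chose the members, the levels are a description. They ran from 1 FPKM upward with a median of 5.42 FPKM, beside 8.71 FPKM for all tested genes. Only 5 members exceeded 100 FPKM, 47 lay between 10 and 100, and 97 between 1 and 10. Just inside the threshold were Slc5a5, Slc38a1 and Slc18a2 with means of 1.01, 1.04 and 1.09 FPKM, and just outside Slc52a3, Slc25a53, Slc25a23 and Slc25a27 with 0.994, 0.972, 0.908 and 0.892 FPKM. In 13 members the mean of one group was below 1 FPKM. Of these, 7 reached it in proximal cells and 6 in distal cells, and 4 passed the test: Slc25a48, Slc17a8 and Slc43a3 were higher and Slc30a2 lower. These members entered through the group in which they were high.

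The most abundant members per unit of transcript length served mitochondrial exchange and amino acid uptake. Slc25a5, an adenine nucleotide translocase that exchanges ADP and ATP, stood at 438, 369 and 396 FPKM in proximal libraries and 546, 437 and 440 FPKM in distal libraries. The groups overlapped at 437 to 438 FPKM (log2 fold change -0.24 ± 0.13 (SE), limma, adjusted p = 0.322). Slc25a3, the mitochondrial phosphate carrier, followed at 364 ± 20.1 FPKM in the proximal and 355 ± 29.2 FPKM in distal libraries (SD, n = 3 each), and the interval of its log2 fold change was -0.22 to 0.30. Slc38a2, a sodium-coupled neutral amino acid transporter, had 288, 174 and 169 FPKM in proximal and 212, 211 and 209 FPKM in distal libraries. Proximal replicate 1 lay above and the other 2 below all distal libraries. Slc3a2, the partner subunit of several Slc7 exchangers, averaged 160 ± 20.3 FPKM in proximal and 151 ± 15.97 FPKM in distal libraries, and Slc7a5, the large neutral amino acid exchanger that pairs with it, 128 ± 5.79 and 113 ± 2.96 FPKM in proximal and distal libraries (SD, n = 3 each). Neither passed (limma, adjusted p = 0.748 for Slc3a2 and 0.287 for Slc7a5).

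**Figure D2:**
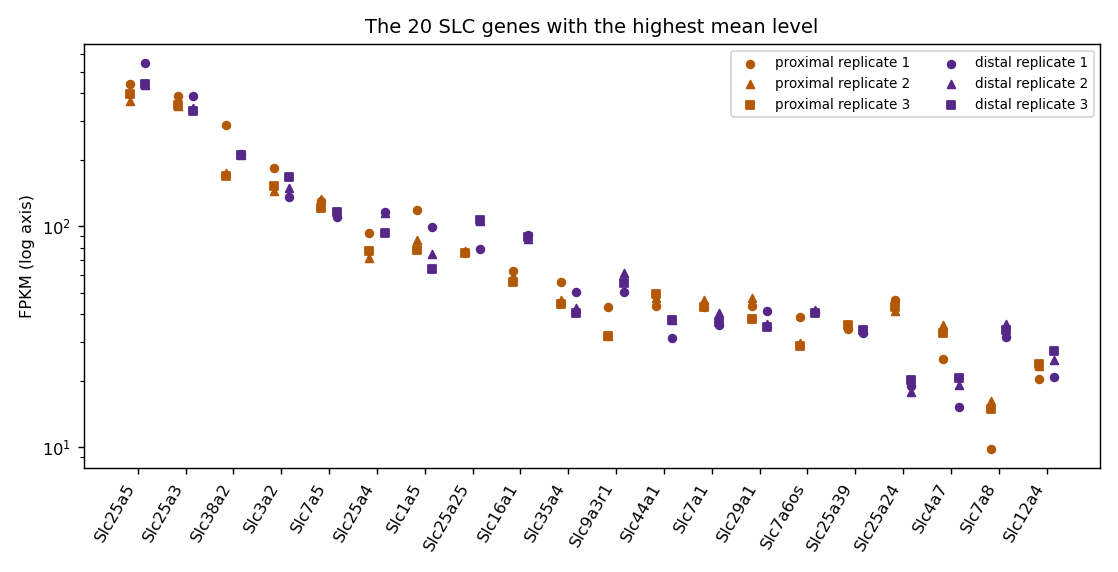
Level of the 20 most abundant SLC genes in each of 6 libraries, in FPKM on a log axis, with proximal libraries in orange left of distal libraries in purple and the replicate number as the shape of the point. The groups of Slc25a24, Slc7a8 and Slc16a1 lie apart, and the libraries of Slc25a5, Slc25a3 and Slc38a2 overlap.

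The counts for each class stand beside 4.52% higher and 2.50% lower over all tested genes. Among 24 members classed with transporters of amino acids and peptides, Slc3a2 included, 3 rose in proximal cells, 1 fell and 20 did not pass. Their median log2 fold change was 0.05. Slc43a2, which encodes LAT4, a uniporter for branched-chain amino acids, methionine and phenylalanine, had 2.99, 4.91 and 4.12 FPKM in proximal and 0.806, 1.11 and 1.10 FPKM in distal libraries. Every proximal library was above every distal one (log2 fold change 1.30 ± 0.18 (SE), limma, adjusted p = 0.00564). Slc6a9, the glycine transporter GlyT1, had 9.97, 8.41 and 10.8 FPKM in proximal and 3.31, 4.53 and 4.64 FPKM in distal libraries. Its groups were separate too (1.06 ± 0.15, adjusted p = 0.00705). Slc1a4, which encodes ASCT1, an exchanger of small neutral amino acids, had 12.8, 9.90 and 9.73 FPKM in proximal and 3.97, 7.16 and 5.41 FPKM in distal libraries. Proximal replicate 1 and distal replicate 1 were the extremes of this gene (0.88 ± 0.20, adjusted p = 0.0374), and the call ended without distal replicate 3, proximal replicate 1, proximal replicate 2 or proximal replicate 3 (adjusted p = 0.0657 to 0.119).

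Slc7a8, which encodes LAT2, an exchanger of neutral amino acids that like LAT1 pairs with the Slc3a2 product, went the other way. It had 9.86, 16.2 and 14.9 FPKM in proximal and 31.6, 35.9 and 34.0 FPKM in distal libraries. All distal libraries were above all proximal ones, with proximal replicate 1 the lowest (log2 fold change -1.28 ± 0.17 (SE), limma, adjusted p = 0.00586). Other exchangers that share the partner subunit did not pass. The difference was 0.18 for Slc7a5 with an interval of -0.04 to 0.39, and -0.12 for Slc7a6 with -0.38 to 0.15. Slc7a11, the cystine and glutamate exchanger, which also pairs with the Slc3a2 product, had 7.27, 4.22 and 4.70 FPKM in proximal and 3.56, 2.42 and 1.83 FPKM in distal libraries. Its groups were separate and the difference of 0.83 did not pass (adjusted p = 0.0755). Slc1a5, the glutamine exchanger ASCT2 and the closest relative of Slc1a4, had 119, 86.6 and 77.9 FPKM in proximal and 99.2, 74.8 and 64.2 FPKM in distal libraries, and the groups overlapped. Slc7a1, which carries cationic amino acids, and Slc6a6, which carries taurine, were separate between the groups by 0.22 and 0.19 on the log2 scale and did not pass (adjusted p = 0.217 and 0.386). Slc16a10, an aromatic amino acid transporter, had the second lowest value of the class, -0.73, with overlapping groups (adjusted p = 0.105).

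**Figure D3:**
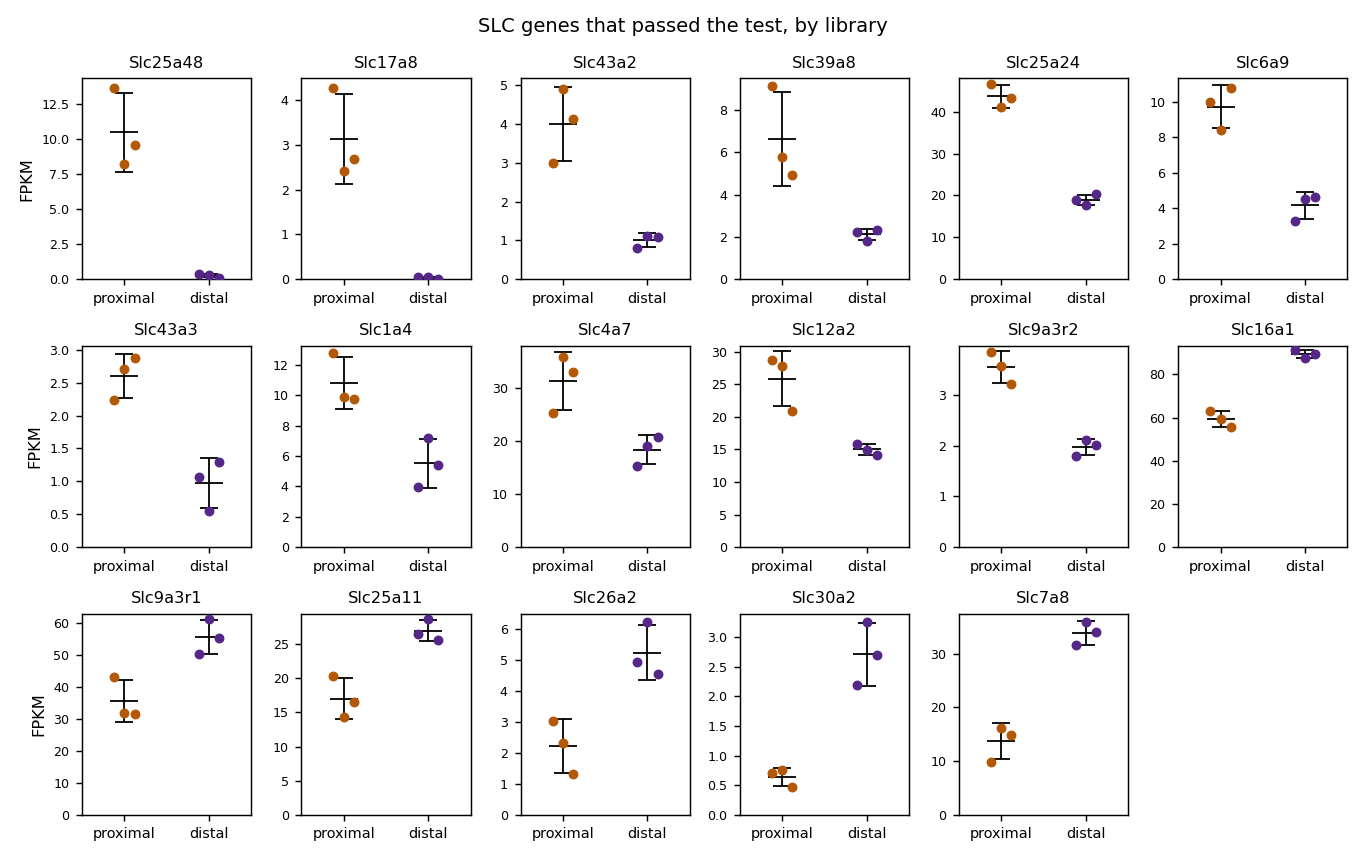
Level in FPKM of the 17 SLC genes that passed the test, one panel per gene with its own axis from 0, with proximal libraries left of distal libraries. Points are libraries, and the bars show the mean and SD of 3 libraries. The groups do not overlap in any panel, and distal libraries of Slc25a48 and Slc17a8 lie close to 0.

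Mitochondrial carriers formed the largest class, with 31 members, of which 2 rose, 1 fell and 28 did not pass. The class holds all expressed Slc25 genes, whichever membrane their products lie in. Their median log2 fold change was -0.18, and 19 of 31 had a negative value. Slc25a48, a carrier linked to the import of choline into mitochondria, had the largest change of all members on log2(FPKM + 1), with 13.7, 8.21 and 9.62 FPKM in proximal and 0.368, 0.288 and 0.121 FPKM in distal libraries. It was near 0 in every distal library (log2 fold change 3.17 ± 0.19 (SE), limma, adjusted p = 0.000143), and with a pseudocount of 0.1 the log2 fold change was 4.92. Its single transcript was assigned to the gene by its exons and not by its full span. Slc25a24, one of the calcium-regulated carriers that exchange ATP-Mg for phosphate, had 46.5, 41.2 and 43.3 FPKM in proximal and 18.8, 17.7 and 20.2 FPKM in distal libraries. The spread within each group was small beside the gap between them (1.16 ± 0.10, adjusted p = 0.000809). Its relative Slc25a25, with the same exchange, stood at 75.7, 77.2 and 75.8 FPKM in the proximal and 79.0, 106 and 106 FPKM in distal libraries. There the groups were separate in the opposite direction and did not pass (-0.33, adjusted p = 0.174).

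Slc25a11, the exchanger of oxoglutarate and malate in the malate-aspartate shuttle, had 20.3, 14.3 and 16.5 FPKM in proximal and 26.6, 28.7 and 25.7 FPKM in distal libraries. All distal libraries were higher (log2 fold change -0.65 ± 0.14 (SE), limma, adjusted p = 0.0310), and the call ended without distal replicate 2, distal replicate 3, proximal replicate 2 or proximal replicate 3 (adjusted p = 0.0918 to 0.140). The aspartate and glutamate carriers of the same shuttle differed less: Slc25a12 by -0.39 and Slc25a13 by 0.16, and neither passed (adjusted p = 0.196 and 0.772). Slc25a20, the carnitine and acylcarnitine carrier, had 15.8, 12.1 and 11.4 FPKM in proximal and 18.5, 19.9 and 19.6 FPKM in distal libraries. It lay just outside the threshold (-0.54, adjusted p = 0.0543), as did Slc25a40, which carries glutathione (-0.53, adjusted p = 0.0530). Slc25a4, the second adenine nucleotide translocase of the class, averaged 80.8 ± 11.0 FPKM in proximal and 108 ± 12.8 FPKM in distal libraries (SD, n = 3 each), and Slc25a38, a glycine carrier of heme synthesis, 6.24 ± 0.396 and 9.82 ± 2.45 FPKM in proximal and distal libraries. Both had separate groups and did not pass (adjusted p = 0.113 and 0.108). The interval of Slc25a39, a glutathione carrier, was narrow around 0, at -0.14 to 0.27.

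Of 24 transporters of metals and heme, 1 rose, 1 fell and 22 did not pass, with a median log2 fold change of -0.02. Over all tested genes 4.52% were higher and 2.50% lower. Both that passed carry zinc. Slc39a8, which encodes ZIP8, an importer of zinc, manganese and cadmium into the cytosol, had 9.14, 5.78 and 4.93 FPKM in proximal and 2.22, 1.82 and 2.32 FPKM in distal libraries. Proximal replicate 1 was the highest and the groups were separate (log2 fold change 1.25 ± 0.21 (SE), limma, adjusted p = 0.0119). The call ended without distal replicate 2 (adjusted p = 0.0623). Slc30a2, which encodes ZnT2, a transporter that moves zinc from the cytosol into vesicles, had 0.707, 0.754 and 0.472 FPKM in proximal and 2.19, 3.25 and 2.70 FPKM in distal libraries. Every proximal library was below every distal one (-1.17 ± 0.16, adjusted p = 0.00614), and with a pseudocount of 0.1 the log2 fold change was -1.92, beyond that of Slc7a8 at -1.33. One of its transcripts was listed at 0 in all proximal libraries and at 0.680, 0.868 and 2.28 FPKM in distal libraries. The other had 0.707, 0.754 and 0.472 FPKM in proximal and 1.51, 2.38 and 0.420 FPKM in distal libraries, so its groups overlapped.

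The ZIP family, Slc39, had 10 members, of which only Slc39a8 passed, and the ZnT family, Slc30, had 7, of which only Slc30a2 passed. Summed over the family, Slc39 stood at 79.6 ± 3.29 FPKM in the proximal and 62.8 ± 1.23 FPKM in distal libraries, and Slc30 at 65.5 ± 4.70 and 67.0 ± 2.90 FPKM in proximal and distal libraries (SD, n = 3 each). Slc39a14, which encodes ZIP14, the nearest relative of ZIP8, had 15.6, 19.9 and 20.2 FPKM in proximal and 11.5, 12.2 and 13.8 FPKM in distal libraries. Its groups were separate and it lay just outside the threshold (log2 fold change 0.53, limma, adjusted p = 0.0539). Slc39a4 and Slc39a6, the zinc importers ZIP4 and ZIP6, were also separate with 0.50 and 0.35 and did not pass (adjusted p = 0.0882 and 0.117). The most abundant of the class, Slc30a5, which encodes ZnT5 of the secretory pathway, averaged 18.5 ± 2.43 FPKM in proximal and 22.7 ± 3.45 FPKM in distal libraries (adjusted p = 0.285). Slc48a1, a heme transporter, had 7.15, 6.47 and 8.39 FPKM in proximal and 9.92, 12.0 and 11.1 FPKM in distal libraries, and Slc31a1, the copper importer CTR1, 20.5, 14.2 and 14.8 FPKM in proximal and 21.1, 23.7 and 23.3 FPKM in distal libraries. The values of each were separate and did not pass (adjusted p = 0.0534 and 0.113). Slc40a1, the iron exporter ferroportin, and Slc11a2, the iron importer DMT1, overlapped between the groups.

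Among 13 transporters of inorganic ions, 2 rose, 1 fell and 10 did not pass, with a median log2 fold change of 0.05. Slc12a2, which encodes NKCC1, the cotransporter of sodium, potassium and chloride, had 28.7, 27.8 and 20.996 FPKM in proximal and 15.9, 15.0 and 14.2 FPKM in distal libraries. All proximal libraries were higher (0.73 ± 0.14 (SE), limma, adjusted p = 0.0193), and the call ended without distal replicate 2, distal replicate 3 or proximal replicate 2 (adjusted p = 0.0834 to 0.0990). Slc4a7, which encodes NBCn1, a cotransporter of sodium and bicarbonate, had 25.2, 35.7 and 32.9 FPKM in proximal and 15.3, 19.1 and 20.7 FPKM in distal libraries. Its libraries numbered 1 were the lowest of both groups (0.74 ± 0.16, adjusted p = 0.0363). The call ended without distal replicate 1, distal replicate 2, distal replicate 3, proximal replicate 2 or proximal replicate 3 (adjusted p = 0.0588 to 0.146). Slc26a2, a sulfate transporter that supplies the sulfation of proteoglycans, had 3.01, 2.33 and 1.31 FPKM in proximal and 4.93, 6.22 and 4.53 FPKM in distal libraries. The distal libraries were all higher (-0.98 ± 0.22, adjusted p = 0.0364), and the call ended on leaving out any library other than proximal replicate 1, namely distal replicate 1, distal replicate 2, distal replicate 3, proximal replicate 2 or proximal replicate 3 (adjusted p = 0.0541 to 0.151). Nearly all of the Slc26a2 signal came from a transcript assigned by its exons. Its closely matched transcript was at 0.0341 FPKM or less in every library, so the gene was not tested with closely matched transcripts alone.

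Some relatives of Slc12a2 couple chloride to potassium and so move it outward. Slc12a4, one of these, had 22.5 ± 1.85 FPKM in proximal and 24.3 ± 3.34 FPKM in distal libraries (SD, n = 3 each). Slc12a7, of the same kind, had 4.62, 5.88 and 4.25 FPKM in proximal and 2.92, 3.52 and 3.57 FPKM in distal libraries. The groups of Slc12a7 were separate without passing (log2 fold change 0.44, limma, adjusted p = 0.118).

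Of 11 transporters of organic ions and of vesicles, Slc17a8 rose and 10 did not pass, with a median log2 fold change of 0.17. Slc17a8 encodes VGLUT3, which loads glutamate into synaptic vesicles, and had 4.27, 2.41 and 2.67 FPKM in proximal and 0.0510, 0.0477 and 0.0108 FPKM in distal libraries. It was close to 0 in every distal library (1.96 ± 0.19 (SE), limma, adjusted p = 0.00125). At such low levels the log2 fold change depends on the pseudocount, and it was 4.53 with a pseudocount of 0.1. Markers of nerve and glia moved in the same direction: 2 of 3 tested were higher, and the sum over the list was 10.6 to 15.7 FPKM in proximal and 2.98 to 4.65 FPKM in distal libraries. Their part in the result was not tested. Slc22a23, the most abundant of the class and an orphan of the organic ion family, had 9.84, 18.7 and 17.0 FPKM in proximal and 8.34, 10.1 and 11.3 FPKM in distal libraries. The proximal values were uneven and the groups overlapped (0.53, adjusted p = 0.205), and it passed without proximal replicate 1 (0.79, adjusted p = 0.0216). Slc22a5, the carnitine transporter OCTN2, was separate with 3.03 ± 0.327 FPKM in proximal and 3.82 ± 0.0939 FPKM in distal libraries and did not pass (adjusted p = 0.245).

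Among 5 transporters of nucleosides and nucleobases, Slc43a3 rose and 4 did not pass. It carries purine nucleobases and had 2.24, 2.70 and 2.87 FPKM in proximal and 1.07, 0.550 and 1.30 FPKM in distal libraries. All proximal libraries were higher (log2 fold change 0.89 ± 0.18 (SE), limma, adjusted p = 0.0280, and 1.40 with a pseudocount of 0.1), and the call ended without distal replicate 2, proximal replicate 2 or proximal replicate 3 (adjusted p = 0.0909 to 0.115). With Slc43a2 it made 2 of the 3 expressed Slc43 genes higher in proximal cells, whereas Slc43a1, which encodes LAT3, had 0.04 with an interval of -0.28 to 0.37. Slc29a1, the equilibrative nucleoside transporter ENT1 and the most abundant of this class, averaged 43.0 ± 4.80 FPKM in proximal and 37.5 ± 3.49 FPKM in distal libraries (SD, n = 3 each, adjusted p = 0.371).

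In the class of mono- and dicarboxylates, with 6 members, Slc16a1 fell and 5 did not pass. Slc16a1 encodes MCT1, which carries lactate, pyruvate and ketone bodies together with protons. It had 63.0, 59.3 and 55.7 FPKM in proximal and 91.2, 87.7 and 89.6 FPKM in distal libraries. The values within each group lay close together and apart from the other group (log2 fold change -0.59 ± 0.09 (SE), limma, adjusted p = 0.0109). The call ended without distal replicate 2, distal replicate 3 or proximal replicate 2 (adjusted p = 0.0550 to 0.0577). Slc16a9, named after its values were seen, had 11.0, 28.6 and 38.0 FPKM in proximal and 6.54, 11.2 and 11.8 FPKM in distal libraries. Its proximal replicate 1 lay among the distal libraries (1.18 ± 0.42, adjusted p = 0.131). Emb, which encodes embigin, a chaperone that brings monocarboxylate transporters to the membrane, had 27.8, 26.6 and 29.2 FPKM in proximal and 13.2, 10.2 and 10.8 FPKM in distal libraries. It was higher in all proximal libraries (1.22 ± 0.12, adjusted p = 0.00136), and the other 3 tested genes of its list, which holds these chaperones and the pyruvate carrier, did not pass.

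None of the 10 sugar and polyol transporters passed with all 6 libraries and no further scaling. Slc45a4, of a family described as proton-coupled sugar transporters, had 2.62, 2.30 and 2.14 FPKM in proximal and 3.26, 6.16 and 6.14 FPKM in distal libraries. The groups were separate, with distal replicate 1 nearest the proximal libraries (log2 fold change -0.85 ± 0.22 (SE), limma, adjusted p = 0.0562). It passed with median ratio scaling (adjusted p = 0.0435), with quantile normalisation (0.0302) and without distal replicate 1 (0.00568). Slc5a3, which takes up myo-inositol together with sodium, had 15.6, 14.8 and 13.7 FPKM in proximal and 16.3, 28.7 and 25.2 FPKM in distal libraries, again with distal replicate 1 nearest (-0.60 ± 0.19, adjusted p = 0.106), and passed without that library (adjusted p = 0.00907). Part of the Slc5a3 span is shared with Mrps6, another expressed gene. Slc2a4, the insulin-responsive glucose transporter GLUT4, had 17.1, 15.9 and 17.0 FPKM in proximal and 11.3, 13.5 and 12.9 FPKM in distal libraries. Those groups were separate in the opposite direction (0.38, adjusted p = 0.0784). Slc2a3, the glucose transporter GLUT3, was level at 2.79 ± 0.293 FPKM in the proximal and 2.78 ± 0.335 FPKM in distal libraries (SD, n = 3 each).

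Vitamin and choline transporters, 9 in number, had no call with all 6 libraries either. Slc44a1, a choline transporter and the most abundant of them, had 43.7, 47.1 and 49.5 FPKM in proximal and 31.3, 37.7 and 37.8 FPKM in distal libraries. Slc19a1, the reduced folate carrier, had 12.2, 14.9 and 15.1 FPKM in proximal and 9.40, 11.0 and 9.91 FPKM in distal libraries. Both were separate between the groups and did not pass (log2 fold changes 0.39 and 0.43, limma, adjusted p = 0.0818 and 0.0810), and Slc19a1 passed without proximal replicate 1 (adjusted p = 0.0365). Without both libraries numbered 1, 5 of the 9 passed: Slc44a1 and Slc19a1 were higher, and Slc19a2, Slc46a3 and Slc44a2 lower (adjusted p = 0.0208 to 0.0313). Slc19a2, which carries thiamine, was separate the other way, with 16.4, 12.6 and 9.50 FPKM in proximal and 22.2, 19.4 and 17.4 FPKM in distal libraries, and did not pass (adjusted p = 0.1004). Slc5a6, the biotin and pantothenate transporter, was listed at 0 in proximal replicate 1 and in distal replicate 2 and at 1.24 to 2.11 FPKM in the other 4 libraries. It shares part of its span with Atraid, another expressed gene.

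The remaining classes held no call with all 6 libraries. Among 6 transporters of nucleotide sugars and acetyl-CoA, Slc35a4 was the most abundant at 48.8 ± 6.12 FPKM in the proximal and 44.6 ± 5.21 FPKM in distal libraries, and Slc33a1, which moves acetyl-CoA into the endoplasmic reticulum, had the smallest p (log2 fold change -0.48, limma, adjusted p = 0.111). Of 4 transporters of fatty acids, bile acids and steroids, Slc10a3 averaged 13.4 ± 1.78 FPKM in proximal and 12.3 ± 0.658 FPKM in distal libraries, and Slc27a4, the fatty acid transport protein FATP4, 3.57 ± 0.516 and 2.59 ± 0.425 FPKM in proximal and distal libraries (adjusted p = 0.216). The 2 phosphate transporters, both sodium-coupled, pointed in opposite directions: Slc20a1 averaged 19.9 ± 1.20 FPKM in proximal and 25.5 ± 4.76 FPKM in distal libraries, and Slc20a2 21.03 ± 4.51 and 17.98 ± 3.60 FPKM in proximal and distal libraries (SD, n = 3 each). Neither passed (adjusted p = 0.204 and 0.537).

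The NHERF scaffold proteins, which carry an SLC symbol without being transporters, moved in opposite directions. Slc9a3r1, which encodes NHERF1, an adaptor that anchors transporters to the cytoskeleton, had 43.2, 31.8 and 31.7 FPKM in proximal and 50.4, 61.2 and 55.2 FPKM in distal libraries. The distal libraries were all higher (log2 fold change -0.64 ± 0.15 (SE), limma, adjusted p = 0.0385). Its shorter transcript, assigned by exons, was listed at 8.94, 0 and 0 FPKM in the proximal and 13.3, 15.4 and 13.0 FPKM in distal libraries, and with closely matched transcripts alone the difference was -0.34 and did not pass (adjusted p = 0.103). Its call ended as well with no variance trend (adjusted p = 0.0522) and without distal replicate 2, distal replicate 3, proximal replicate 2 or proximal replicate 3 (adjusted p = 0.119 to 0.166). Slc9a3r2, which encodes the related NHERF2, had 3.86, 3.58 and 3.23 FPKM in proximal and 1.81, 2.12 and 2.01 FPKM in distal libraries. It was higher in all proximal libraries (0.61 ± 0.13, adjusted p = 0.0310), and the call ended on leaving out any library but distal replicate 1, namely distal replicate 2, distal replicate 3, proximal replicate 1, proximal replicate 2 or proximal replicate 3 (adjusted p = 0.0515 to 0.127).

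Sums over a class are given without a test. The whole set stood at 2880 ± 200 FPKM in the proximal and 2946 ± 55.5 FPKM in distal libraries (SD, n = 3 each). Mitochondrial carriers made up 41.2% of this sum in proximal and 43.5% in distal libraries, and amino acid and peptide transporters 26.8% and 24.9% in proximal and distal libraries. Inorganic ion transporters summed to 119, 131 and 117 FPKM in proximal and 94.1, 106 and 106 FPKM in distal libraries, and the groups were separate. So were those of the organic ion and vesicular class, with 38.2, 43.9 and 41.0 FPKM in proximal and 32.2, 35.2 and 35.6 FPKM in distal libraries, and, in the opposite direction, the mono- and dicarboxylate class, with 93.2, 105 and 110 FPKM in proximal and 116, 118 and 119 FPKM in distal libraries. Metal transporters were level, at 203 ± 8.37 FPKM in the proximal and 199 ± 1.30 FPKM in distal libraries.

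**Figure D4:**
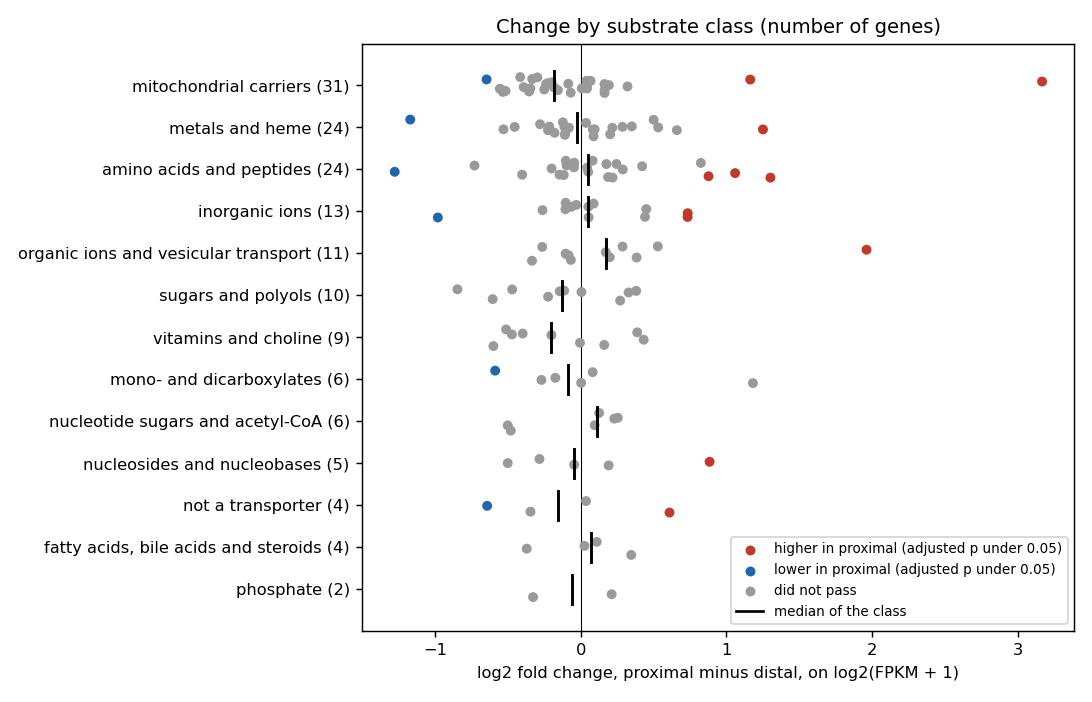
Log2 fold change, proximal minus distal on log2(FPKM + 1), of every member in its substrate class, with the number of genes of the class in brackets and its median as a black bar. Genes higher in proximal libraries that passed are red, lower ones blue and the others grey, and class medians lie between -0.20 for vitamins and choline and 0.17 for organic ions and vesicular transport.

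Many of these calls ended on leaving out a single library, which also left fewer libraries to test. The log2 fold change of each of the 17 called members kept its direction in all 6 of these fits. Of the 17 members that passed, 7 passed on leaving out each of the 6 libraries in turn: Slc25a48, Slc17a8, Slc43a2, Slc25a24, Slc6a9, Slc7a8 and Slc30a2. Of these, Slc25a48, Slc17a8 and Slc30a2 had entered the set through the group in which they were high. The mean that chose the genes was taken over all 6 libraries in every fit, so a library left out still took part in that choice. Without distal replicate 2 there were 6 members higher and 2 lower, without distal replicate 3 there were 7 and 2, without proximal replicate 2 there were 6 and 2, and without proximal replicate 3 there were 7 and 3. The counts went the other way for libraries numbered 1. Leaving out proximal replicate 1 gave 14 higher and 13 lower members, and leaving out distal replicate 1 gave 11 higher and 13 lower members. Of all tested genes, 2.31% to 11.0% were called on leaving out a single library. Without proximal replicate 1, 5.36% of all tested genes were higher and 5.39% lower, and without distal replicate 1, 4.99% and 5.99%. On leaving out any library not numbered 1, 1.87% to 2.59% were higher and 0.439% to 0.702% lower. Proximal replicate 1 differed by over 0.5 on the log2 scale from the mean of the other proximal libraries in 16 members upward and 11 downward.

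Leaving out both libraries numbered 1 gave 18 higher and 26 lower members, beside 8.59% and 12.9% of all tested genes and 21.5% in either direction. All 17 members remained called, and 27 more were called, 7 higher and 20 lower, with 6 of them mitochondrial carriers, 5 vitamin and choline and 3 sugar and polyol transporters. Among these additions were Slc16a9 with a log2 fold change of 1.44, Slc45a4 with -1.15, Slc5a3 with -0.88, Slc7a11 with 0.81, Slc39a14 with 0.59 and Slc25a20 with -0.71 (limma, adjusted p = 0.00403, 0.00392, 0.00629, 0.0184, 0.0148 and 0.00755). Slc38a2 joined them with -0.29 (adjusted p = 0.0458). This comparison rests on 2 libraries in each group.

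**Figure D5:**
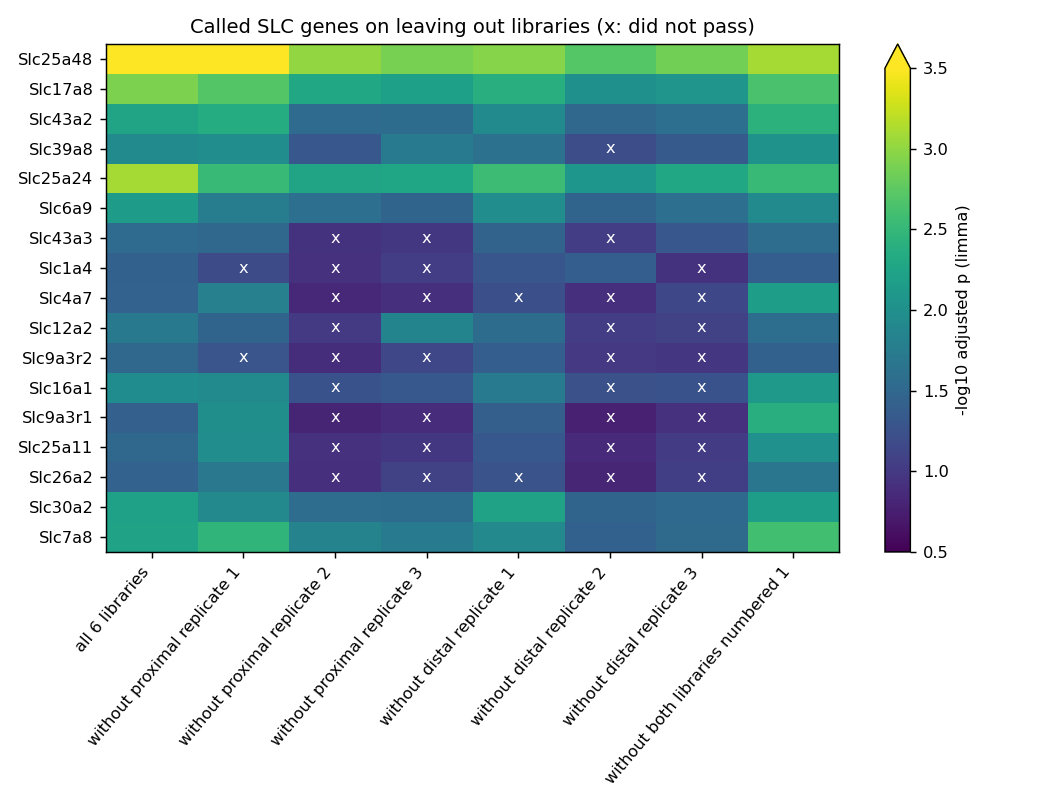
Adjusted p (limma) on a -log10 scale, as colour, of the 17 called SLC genes with all 6 libraries, without each library in turn and without both libraries numbered 1, with colours saturating at 3.5. A cross marks a gene that did not pass, and 7 genes carry no cross, whereas Slc4a7, Slc26a2 and Slc9a3r2 carry 5 each.

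Neighbouring transport systems were examined through 10 further lists. The counts for each list stand beside 4.52% higher and 2.50% lower over all tested genes. The sodium pump, whose gradient drives many SLC symporters, had 3 of 8 tested genes higher and 0 lower, with a median log2 fold change of 0.40, beside -0.01 over all tested genes. Atp1b1, its beta subunit, had 220, 181 and 166 FPKM in proximal and 111, 118 and 98.3 FPKM in distal libraries, and was higher in all of them (0.78 ± 0.13 (SE), limma, adjusted p = 0.0137). Fxyd4, a small regulator of the pump, averaged 9.96 ± 2.61 FPKM in proximal libraries, against 1.21 ± 0.213 FPKM in distal libraries, and Fxyd1, of the same family, 14.7 ± 2.48 FPKM, against 5.73 ± 0.401 FPKM (SD, n = 3 each, adjusted p = 0.000555 and 0.00284). The vacuolar proton pump had 1 of 16 tested genes higher, Atp6ap1, an accessory subunit (0.43, adjusted p = 0.0456), and 0 lower.

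Among 15 tested Slc35 genes of other letters, Slc35e4 alone passed (0.81, limma, adjusted p = 0.0234), and among 21 tested ABC transporters, which use ATP directly, Abca8a alone (1.14, adjusted p = 0.0104), both higher. The 3 tested organic anion transporting polypeptides did not pass, with Slco2a1, the prostaglandin transporter, at 133 ± 34.6 FPKM in the proximal and 154 ± 16.5 FPKM in distal libraries (SD, n = 3 each). Of 4 tested genes for metallothioneins and metal sensing, Mt3 fell, with 2.71 ± 0.214 FPKM in proximal and 5.57 ± 0.336 FPKM in distal libraries (adjusted p = 0.00758). The other 3 did not pass, and the median log2 fold change of this list was -0.65. Its sum was 6500 to 9942 FPKM in proximal and 12945 to 13082 FPKM in distal libraries. Iron handling had 2 of 14 tested genes higher and 3 lower. Tfrc, the transferrin receptor, fell to 44.8, 33.9 and 35.1 FPKM in proximal libraries, against 57.7, 61.9 and 59.6 FPKM in distal libraries (-0.65 ± 0.12, adjusted p = 0.0212), and Hamp, which encodes the ferroportin ligand hepcidin, to 27.2 ± 5.74 FPKM, against 61.3 ± 9.83 FPKM (adjusted p = 0.0101). Steap1, a metalloreductase, rose (1.07, adjusted p = 0.0172). Of 17 tested genes of the amino acid response, Mthfd2, a mitochondrial folate enzyme, and Vldlr, a lipoprotein receptor, rose (0.52 and 0.81, adjusted p = 0.0154 and 0.0280) and 0 fell, and none of 16 tested genes for amino acid sensing by mTORC1 at the lysosome passed.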

How the data were processed

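RNA of 6 libraries, 3 of proximal and 3 of distal basal cells, was made into cDNA with random and oligo(dT) primers and sequenced on an Illumina instrument, per the labels' protocols. Build mm10 and the tools bcl2fastq 1.8.3, TopHat and Cufflinks are named, per the submitters' processing notes. The deposited FPKM of 63241 transcripts per library were used as given, per the file headers. The files also hold a coverage signal per transcript, per the file headers, which was not used. How wide the deposited FPKM intervals are on isolated transcripts gave the depth, without correction for effective length.

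Transcripts were matched to GENCODE M21 (GRCm38, the assembly of mm10) by span and spliced length (score of at least 0.5, best other gene below 0.8 of it; 49609 transcripts) or by exons of a single gene covering at least 0.8 of the length (3714 transcripts). They held 93.85% of the FPKM and gave 25273 genes as sums over transcripts. In a test on 2000 altered reference transcripts, 90.1% found a gene, which was the right one in 99.72%. No member held a transcript of failed status. Strand marking is not stated, so overlapping genes cannot be told apart with certainty. No member called with all 6 libraries in the main test overlapped another expressed transcript. Of the other members named, Slc5a3 overlapped Mrps6, Slc48a1 Hdac7, Slc5a6 Atraid and Slc20a2 Gm17491. Slc16a9 and Slc20a1 overlapped expressed transcripts that matched no gene.

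Testing covered genes averaging 1 FPKM or more and was done with limma 3.58.1 (R 4.3.3; lmFit, eBayes with a variance trend, two-sided) on log2(FPKM + 1), which understates changes of low genes. In simulated data on 10255 genes with 200 changed, 60.9% of changes of 1 and 96.7% of changes of 2 on the log2 scale were recovered, with 5 false calls. Alternatives were another pseudocount, filter, scaling, variance model, matching, a replicate block and leaving out libraries. Members, substrate classes, lists and tests were chosen with earlier results of these data known. The text names the members that passed (the rule allowed the 12 largest changes in each direction), the most abundant member and the one with the smallest p of each class, and up to 3 genes per further list. Other members named were chosen after their values were seen. Upstream windows came from RefSeq. A few genes are not reported here.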

Additional observations from a re-analysis of the deposited data

How the results depend on the processing

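Counts of called members depended on the settings. The main test gave 11 higher and 6 lower members and 720 called genes in all. A filter at 5 FPKM gave 6 higher and 4 lower members and 441 called genes, with fewer genes tested. The called share of tested genes was only slightly below that of the main test. Slc17a8, Slc43a2, Slc43a3, Slc39a8, Slc9a3r2, Slc30a2 and Slc26a2, called in the main test, had means below 5 FPKM and were not tested there. All other members called in the main test still passed. No filter gave 7 higher and 3 lower members, with 553 genes (2.98%) called. Median ratio scaling gave 10 lower members, with 794 genes (7.74%) called. Leaving out one library gave 6 to 14 higher members, 2 to 13 lower members and 237 to 1126 called genes (2.31% to 11.0%). Leaving out both libraries numbered 1 gave 18 higher and 26 lower members and 2209 called genes. Apart from the members left untested by the filter at 5 FPKM, the cause of these shifts was not tested. A pseudocount of 0.1, quantile normalisation, no variance trend and closely matched transcripts alone kept each of these counts within 1.5 times. Without a filter, Slc43a3, Slc1a4, Slc4a7, Slc9a3r2, Slc26a2, Slc25a11 and Slc9a3r1 no longer passed (limma, adjusted p = 0.0609 to 0.0899). The log2 fold change of Slc38a2, -0.05 with all libraries, ranged from -0.29 to 0.089 on leaving out one library, with 0.068 without proximal replicate 2 and 0.089 without proximal replicate 3, and did not pass in any of these.

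A replicate block by the replicate number gave 21 higher and 14 lower members, beside 8.58% and 7.14% of all tested genes, and 1612 called genes. Among the members that the block added to the calls were Slc22a23, Slc45a4, Slc44a1 and Slc19a1 (limma, adjusted p = 0.0200 to 0.0469). Samples with the same number share no stated animal or batch, so the number was not taken as a pairing. Deviations from the group means correlated at 0.383, 0.0446 and 0.286 between libraries with the same number. Between libraries with different numbers they correlated at -0.37 to 0.16. Whether libraries with the same number share a source was not tested. Not every library correlated best with its own number.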
